A study of Homo sapiens with 5 samples.

Results

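The thymosins TMSB4X and TMSB10, scinderin (SCIN), its relatives GSN, CAPG and VIL1, the cofilins CFL1 and CFL2, and the profilins PFN1 and PFN2 were followed in HEK 293T, an established human line derived from embryonic kidney and transformed with adenoviral genes and SV40 large T antigen. These 10 genes were taken by name, and each had 1 entry among the 20220 usable RefSeq entries of the deposited expression table. They were chosen by their role and with the FPKM values of this table already known, above all those of TMSB4X and SCIN in each group, so their levels and differences are given as a description and are not tested. Treated cells received 1.0 µM 5-aza-CdR (5-aza-2'-deoxycytidine, a cytidine analogue that traps DNA methyltransferases once it is built into DNA) for 3 days, and 2 libraries were made from them. Recovery cells had the same exposure, then stayed in drug-free culture for 30 days, and gave 1 library. Control cells were grown without drug and gave 2 libraries. All groups are the same established line in culture, so they show neither a tissue nor different donors, and the labels neither tie single libraries to separate cultures nor say when control cells were collected.

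Actin exists as monomers (G-actin) and filaments (F-actin), and the proteins described here set the balance between them. Beta-thymosins bind and hold monomers, profilins bind monomers and deliver them to growing filament ends, cofilins sever filaments and speed their disassembly, and proteins of the gelsolin family sever or cap filaments in response to calcium. Loss of DNA methylation is known to switch on some genes whose promoters were methylated.

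The authors deposited 1 FPKM value (fragments mapped to a transcript, scaled by its length and by the size of the library) per gene and group, not per library. The spread between libraries is therefore unknown, and no error stands beside the values below. In the authors' deposited table each gene also has q-values, p-values corrected for the number of genes, one for treated and one for recovery cells against control cells, and a gene counts as called at q under 0.05. Numbers of fragments are not given, but 1 fragment was estimated to be worth 0.757 times as much FPKM in treated and 1.53 times as much in recovery cells as in control cells, from the commonest ratio of low values. Of 8 markers of HEK 293T cells and their parent line, 7 had an entry. VIM was at 181, 246 and 316 FPKM in treated, recovery and control cells, KRT18 at 418, 214 and 231 FPKM and CDH2 at 24.4, 26.8 and 24.8 FPKM. NEFL was at 22.2, 30.6 and 28.9 FPKM, INA at 3.79, 0.562 and 0.244 FPKM and PAX2 at 0.146, 0 and 0 FPKM. IRS4, a signalling protein known from this line, was at 2.13 and 28.0 FPKM in treated and recovery cells and listed at 0 in control cells, and it was called in both comparisons of the authors' deposited table. In control cells VIM, KRT18, CDH2 and NEFL were thus clearly present, while INA was low and PAX2 and IRS4 were listed at 0. The KRT18 entry spans 13.8 times and the VIM entry 2.50 times the length of its gene in RefSeq, so both may hold fragments of other genes, and the IRS4 entry spans 0.234 times. Bulk RNA cannot tell a change in every cell from a change in the share of cells that carry a transcript.

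On the length-corrected FPKM scale the levels of the 10 genes ran from 0.110 to 1437 in treated cells, from 0.336 to 1504 in recovery cells and from 0 to 1301 in control cells. TMSB10 was the highest of the set in treated, recovery and control cells and VIL1 the lowest. CFL1 ranked next to TMSB10 in every group, and PFN2 and CFL2 held the fifth and the sixth place in every group. TMSB4X was the third in treated cells, with PFN1 behind it, whereas PFN1 was the third and TMSB4X the fourth in recovery and control cells. SCIN ranked above GSN in treated cells, at 9.49 against 8.21 FPKM, and below it in recovery and control cells. Without values per library, none of these neighbours can be said to differ beyond their spread.

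**Figure D1:**
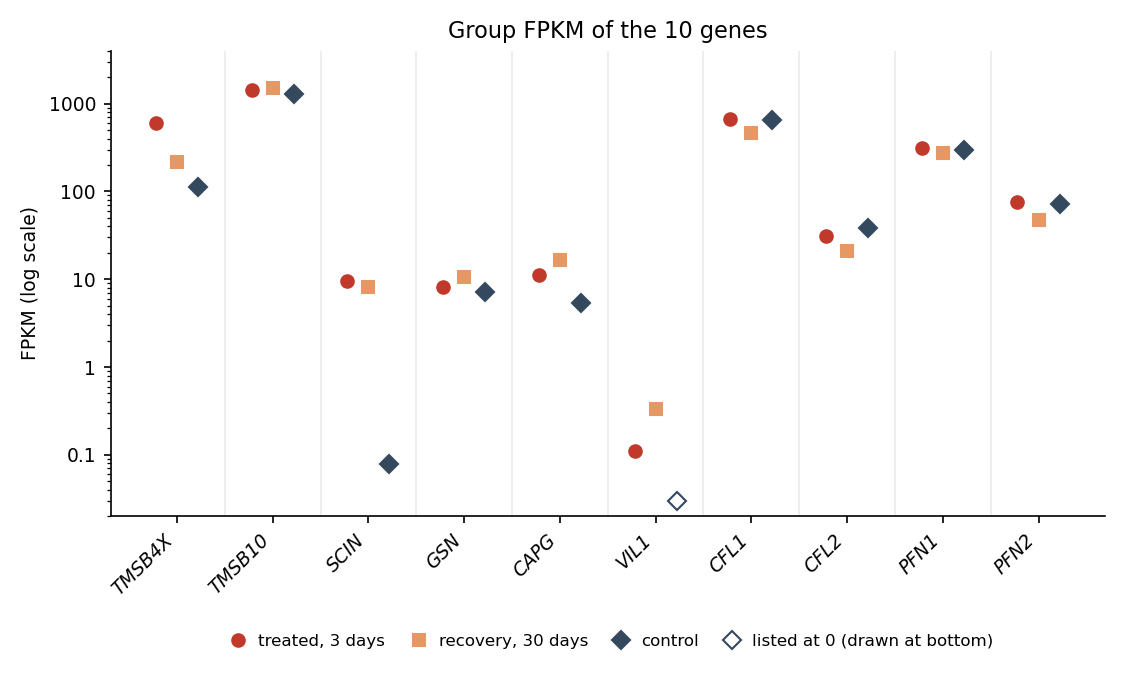
FPKM (log axis) of each gene in treated, recovery and control cells, 1 value per group. SCIN has a control point (0.0781 FPKM) well below its other points. The TMSB4X control point (112 FPKM) lies well below the treated point (609 FPKM) and nearer the recovery point (217 FPKM). The CAPG control point (5.41 FPKM) also lies below its other points (11.3 and 16.6 FPKM). For TMSB10, CFL1 and PFN1 the points of the groups lie close together. VIL1 is listed at 0 in control cells and drawn as an open marker at the bottom.

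The sequences just upstream of the start sites differ between the genes, and they are shown for the pair of thymosins, whose levels differed in pattern, and for SCIN. They are the 250 bases before the RefSeq start (GRCh38.p14, all on the plus strand), 5′ to 3′, at chrX:12974860-12975109 for TMSB4X, chr2:84905406-84905655 for TMSB10 and chr7:12570470-12570719 for SCIN. Capitals mark CpG dinucleotides, the sites that DNA methyltransferases modify.
TMSB4X: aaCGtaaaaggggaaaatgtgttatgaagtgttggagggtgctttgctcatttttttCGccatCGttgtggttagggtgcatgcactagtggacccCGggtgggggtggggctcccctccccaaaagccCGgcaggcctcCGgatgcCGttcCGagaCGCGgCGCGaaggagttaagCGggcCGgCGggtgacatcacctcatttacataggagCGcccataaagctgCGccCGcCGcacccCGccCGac
TMSB10: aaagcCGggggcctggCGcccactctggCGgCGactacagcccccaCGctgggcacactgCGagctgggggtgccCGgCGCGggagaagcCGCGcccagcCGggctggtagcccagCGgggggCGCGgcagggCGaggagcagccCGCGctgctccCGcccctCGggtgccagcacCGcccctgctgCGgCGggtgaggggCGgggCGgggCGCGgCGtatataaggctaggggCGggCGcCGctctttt
SCIN: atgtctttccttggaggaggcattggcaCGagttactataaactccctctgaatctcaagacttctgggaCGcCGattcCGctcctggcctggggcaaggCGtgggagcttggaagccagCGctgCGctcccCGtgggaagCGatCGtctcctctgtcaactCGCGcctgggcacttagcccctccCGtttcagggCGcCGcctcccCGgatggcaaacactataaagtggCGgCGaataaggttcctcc

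These windows held 21 CpGs in TMSB4X, 31 in TMSB10 and 18 in SCIN, against a median of 11 over the 35116 RefSeq promoter windows of the same length. Windows with at least 21 CpGs made up 30.2% of all, those with at least 31 made up 10.9% and those with at least 18 made up 36.8%. GC content was 60.8% in TMSB4X, 78.0% in TMSB10 and 60.0% in SCIN, beside a median of 58.0%. The letters GGGCGG, searched on both strands with overlapping matches counted, occurred once in the TMSB4X window, 5 times in TMSB10 and not in SCIN, and 42.6% of all windows held them. The table of promoters held windows for 8 of the 10 genes, 17 in all, since GSN, CAPG and CFL2 have several starts. Their CpG numbers ran from 1, at a start of CAPG, to 33, at a start of GSN. CFL1 had 28 CpGs, PFN1 had 10, and the starts of CFL2 had 31 and 4. The files do not show which start was used in these cells, and methylation of these windows was not analysed here.

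**Figure D2:**
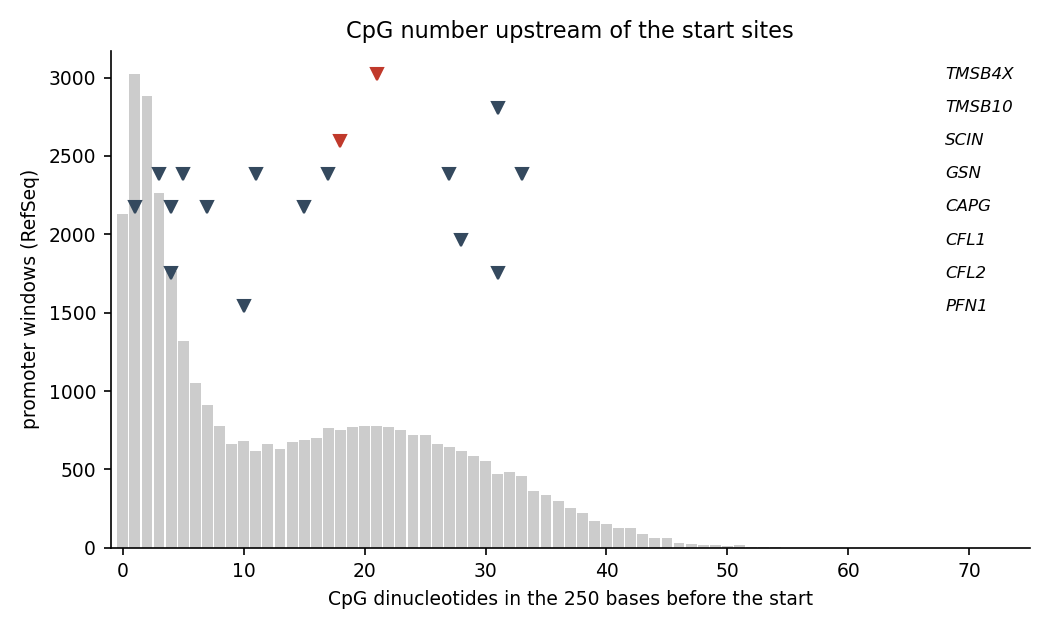
Number of CpG dinucleotides in the 250 bases before each RefSeq start site (grey bars, 35116 windows; height, number of windows), with the windows of 8 of the genes as triangles, 1 row per gene. Red triangles mark TMSB4X (21) and SCIN (18), which lie above the median of 11 and below TMSB10 (31).

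TMSB4X, thymosin beta 4, the main monomer-holding peptide of many cell types, rose in treated cells. The entry (NM_021109, X chromosome, 12993226 to 12995346, hg19) was at 609 FPKM in treated cells, 217 FPKM in recovery cells and 112 FPKM in control cells. Treated cells thus had the highest level, recovery cells an intermediate one and control cells the lowest. The treated level was 5.42 times and the recovery level 1.93 times that of control, and the recovery level was 0.357 times the treated one. On the log2(FPKM + 1) scale these differences were 2.43, 0.95 and -1.48. In the authors' deposited table q was 0.0147 for treated against control, which is a call, and 0.783 for recovery against control, which is not. Recovery against treated has no q-value there. TMSB4X lay above 99.1% of the entries with signal in treated cells, 97.9% of those in recovery cells and 95.6% of those in control cells. Of the 122 entries that the authors' deposited table called higher in treated cells, 16 had signal on both sides. Among these 16 alone, TMSB4X had the highest treated FPKM. Of 1294 entries with a control level of 50 to 500 FPKM, 4 were at 5 or more times control in treated cells. These were TMSB4X and SNAR-C3, SNAR-G1 and SNAR-F, small noncoding RNAs from a family of near copies. The limits were set with the TMSB4X values known, so its place among the 4 is no result about it.

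TMSB10, thymosin beta 10, is a close relative with the same monomer-binding activity. Its entry (NM_021103, chromosome 2, 85132763 to 85133799) was at 1437, 1504 and 1301 FPKM in treated, recovery and control cells, or 1.10 and 1.16 times control. The 3 groups thus lay close together, with q = 0.997 for treated and q = 0.994 for recovery in the authors' deposited table. TMSB10 was 2.36 times as abundant as TMSB4X in treated cells, 6.92 times in recovery cells and 11.6 times in control cells. TMSB4X accordingly made up 29.8% of the FPKM of the pair in treated cells, 12.6% in recovery cells and 7.95% in control cells. The summed level of both was 2046, 1722 and 1414 FPKM in those groups. Of the other thymosins, also monomer binders, TMSB15A was at 35.8, 34.2 and 29.9 FPKM. The TMSB15B entry was at 31.3, 28.1 and 31.4 FPKM, but spans 4.75 times the length of that gene in RefSeq and may hold fragments of others. TMSB4X, TMSB10, CFL1, PFN1 and the cytoplasmic actins have processed pseudogenes with near-identical sequence, and how fragments that match several copies were assigned is not given in the sources used here.

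SCIN encodes scinderin (adseverin), a calcium-dependent severing and capping protein known from secretory cells and megakaryocytes. Its entry (NM_001112706, chromosome 7, 12610203 to 12693228) was at 9.49 FPKM in treated cells, 8.20 FPKM in recovery cells and 0.0781 FPKM in control cells. Signal was thus near the floor in control cells and at a similar level in both groups that had met the drug. The treated level was 121 times and the recovery level 105 times that of control, and the recovery level was 0.864 times the treated one. On the log2(FPKM + 1) scale the differences from control were 3.28 and 3.09, smaller than the ratios because of the pseudocount. Neither passed, with q = 0.939 for both in the authors' deposited table. With the fragment values above, the smallest whole numbers that give these FPKM within 0.1 fragments are 321 treated, 137 recovery and 2 control fragments. The fragment values are themselves estimates, so larger numbers in about the same proportion remain possible. The control level may therefore rest on very few fragments, which leaves the size of the ratio loosely known.

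The calls in the authors' deposited table did not follow the ratio where it was this large. Of the 14 entries with a treated level of 100 or more times a control above 0, SCIN among them, 0 were called. Only 6 of these 14 had a control under 0.1 FPKM. In recovery cells 0 of the 6 entries at 100 or more times control were called. A q of 0.939 for treated cells was shared by 1250 entries. Where control was listed at 0 and treated cells had 5 FPKM or more, 43 of 95 entries were called. Among 359 entries with control above 0 and under 0.1 FPKM the median level was 0.453 FPKM in treated and 0.298 FPKM in recovery cells. SCIN and NLRP2, an inflammasome-related gene, were the 2 of these 359 with 5 FPKM or more in both groups. The limits in this paragraph were set with the SCIN values known, so its place among the 2 is no result about it.

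GSN encodes gelsolin, the founding member of the family. Its entry (NM_000177, chromosome 9, 124030380 to 124095120) was at 8.21, 10.5 and 7.10 FPKM in treated, recovery and control cells, 1.16 and 1.49 times control. The authors' deposited table gave q = 0.997 and q = 0.956. CAPG caps filament ends without severing them. Its entry (NM_001256139, chromosome 2, 85621871 to 85641197) was at 11.3 FPKM in treated, 16.6 FPKM in recovery and 5.41 FPKM in control cells, 2.08 and 3.07 times control. CAPG was thus highest in recovery cells, unlike SCIN and TMSB4X, but q was 0.939 and 0.883 in the authors' deposited table. VIL1 encodes villin, the bundling and severing protein of intestinal and kidney brush borders. Its entry (NM_007127, chromosome 2, 219283838 to 219314248) was at 0.110 and 0.336 FPKM in treated and recovery cells and listed at 0 in control cells, with q = 1 for both in the authors' deposited table. Its values correspond to as few as 2 treated and 3 recovery fragments, so the gene was barely detected.

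Of 8 genes of the gelsolin family 6 had an entry, while no entry matched the symbols AVIL and FLII, and no measured gene was called. Only 4 of these 6 had q under 1. Over all tested entries 1.08% were called higher and 0.275% lower for treated cells, and 0.895% and 0.447% for recovery cells. So 0 calls is near those shares and is no result about the family. The 6 measured genes summed to 40.5, 44.2 and 25.3 FPKM in treated, recovery and control cells. The narrower sum of GSN, SCIN, CAPG and VIL1 rests in part on the SCIN values. SCIN was 32.6% of the summed FPKM of GSN, SCIN, CAPG and VIL1 in treated cells, 23.0% in recovery cells and 0.621% in control cells. That sum was 29.1, 35.7 and 12.6 FPKM. SVIL, which encodes the membrane-linked supervillin, was at 11.4, 7.84 and 12.7 FPKM. VILL, a villin-like gene, was at 0.0542 and 0.658 FPKM in treated and recovery cells and listed at 0 in control cells. These sums, which lack AVIL and FLII, were small beside those of CFL1, CFL2 and DSTN, which were 789, 576 and 785 FPKM.

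The cofilins had no call in either comparison, which is near the shares called over all tested entries and is no result about them. CFL1, the ubiquitous cofilin (NM_005507, chromosome 11, 65622285 to 65625804), was at 665, 464 and 649.6 FPKM in treated, recovery and control cells. Treated cells were thus close to control, at 1.02 times, and recovery cells were at 0.715 times control. CFL2, the cofilin prominent in muscle (NM_001243645, chromosome 14, 35179588 to 35184029), was at 30.8, 21.2 and 38.0 FPKM, or 0.809 and 0.558 times control. DSTN, the related actin-depolymerising factor, was at 93.4, 90.4 and 97.7 FPKM. The lowest q of these 3 genes was 0.979 for treated and 0.826 for recovery cells in the authors' deposited table. CFL1 exceeded CFL2 by a factor of 21.6 in treated, 21.9 in recovery and 17.1 in control cells.

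PFN1, the general profilin (NM_005022, chromosome 17, 4848945 to 4852381), was at 315, 271 and 295 FPKM in treated, recovery and control cells. PFN2, the form enriched in neurons (NM_002628, chromosome 3, 149682691 to 149688741), was at 75.0, 47.1 and 72.4 FPKM. Relative to control, PFN1 was at 1.07 and 0.918 times, and PFN2 at 1.04 and 0.650 times. PFN4, a testis profilin, was at 1.71, 0.989 and 2.58 FPKM. The lowest q of these 3 profilins in the authors' deposited table was 0.998 for treated and 0.927 for recovery cells. Both cofilins and both profilins were thus below control in recovery cells, without a call, and only CFL2 was below control in treated cells. Quantile scaling of the 3 groups left these directions as they were. TMSB10 in recovery against treated cells was the 1 difference among the 10 genes whose sign turned, with log2 differences of 0.07 as deposited and -0.45 after scaling.

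The calls of the set stand here beside those of the whole table. Of the 9 genes with q under 1 for treated against control, 1 was called higher in the authors' deposited table, TMSB4X, beside 1.08% of 11256 entries called higher, and 0 were called lower, beside 0.275%. For recovery against control, 0 of 9 were called higher, beside 0.895% of 11174 entries, and 0 were called lower, beside 0.447%. Since these contrasts were known when the genes were chosen, nothing is read from the counts. TMSB4X and SCIN lay above the 95th percentile of all entries whose mean reached 0.5 FPKM, 1.66 on the log2(FPKM + 1) scale for treated minus control. In recovery minus control, SCIN lay above that percentile of 1.55, CAPG just under it at 1.46, and TMSB4X under it at 0.95. The treated and the recovery comparison use the same control value, so a low control value raises both.

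**Figure D3:**
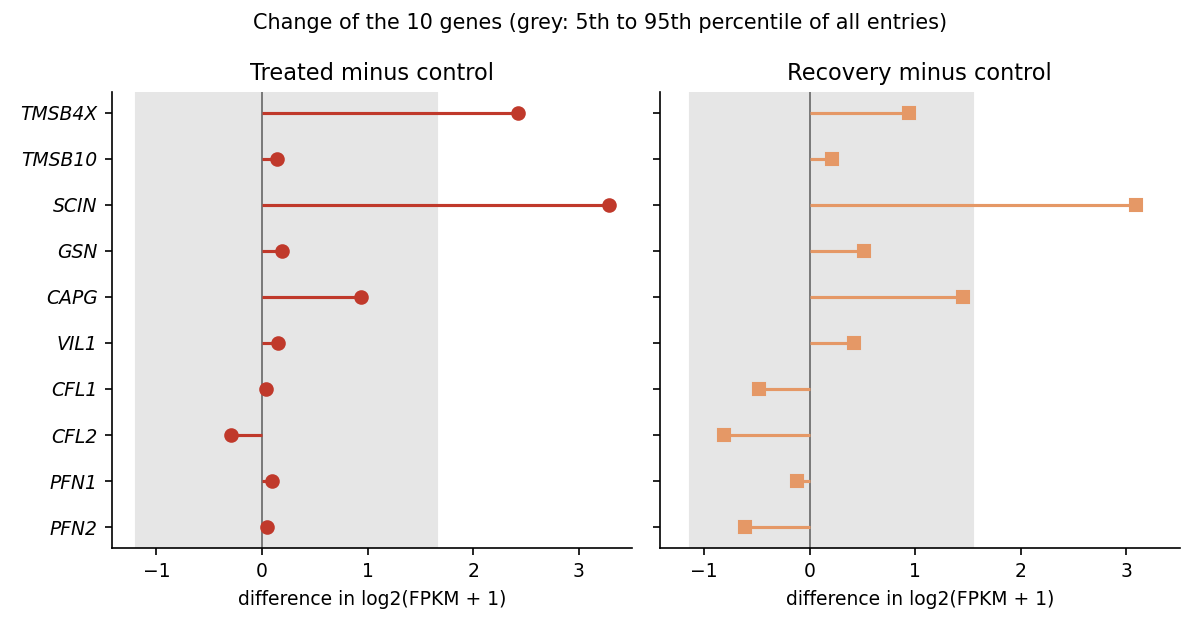
Difference in log2(FPKM + 1) of each gene from control, in treated cells (left) and recovery cells (right); the grey band runs from the 5th to the 95th percentile of 12712 entries. TMSB4X (2.43) and SCIN (3.28) lie outside the band in treated cells, and SCIN (3.09) in recovery cells.

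The wider set of actin regulators was read in the same way. Of 121 genes in 11 lists by role, 108 had an entry. In the authors' deposited table TMSB4X was the 1 call for treated cells, and 0 were called in recovery cells. Over all entries with q under 1, 1.08% were called higher and 0.275% lower for treated cells, and 0.895% and 0.447% for recovery cells. Of the 98 entries outside the 10 genes, 84 had q under 1 for treated and 85 for recovery cells. So 0 calls among them, or in any 1 list below, is near those shares and is no result about the lists. Counts for the lists below are over all measured genes. Among these 98 entries, the lowest q in the authors' deposited table was 0.173 for treated and 0.158 for recovery cells. The median log2 difference over the 99 list genes whose mean reached 0.5 FPKM was 0.09 for treated and -0.01 for recovery cells, beside 0.01 and 0.00 over all 12712 such entries. Of these 99 genes, 59 had a higher value in treated and 48 in recovery than in control cells, and for all entries the counts were 6473 and 6316.

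The actins themselves, which the 10 proteins bind, were abundant. ACTB (beta-actin) was at 951, 555 and 548 FPKM in treated, recovery and control cells, 1.73 times control when treated, with q = 0.927 in the authors' deposited table. ACTG1 (gamma-actin) was at 1134, 918 and 1047 FPKM. TMSB4X and TMSB10 together had 0.982 FPKM per FPKM of these 2 actins in treated cells, 1.17 in recovery cells and 0.886 in control cells. The muscle actins were near 0: ACTA1 was at 0.217, 1.32 and 0.287 FPKM, ACTC1 at 0.120, 0 and 0.689 FPKM, and ACTG2 at 0, 1.13 and 0 FPKM. No entry matched the symbol ACTA2.

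Among filament crosslinkers and side binders, 0 of 24 measured genes were called, and the list's median log2 difference was 0.43 in treated and -0.06 in recovery cells. TPM2, a tropomyosin that coats filaments, was at 42.5, 93.5 and 4.90 FPKM in treated, recovery and control cells (q = 0.408 and 0.158 in the authors' deposited table). PLS3, the bundling protein plastin 3, had the highest mean of this list, at 617, 562 and 628 FPKM, and PLS1 was at 12.7, 13.0 and 17.5 FPKM. FLNA, the crosslinker filamin A on the X chromosome, was at 412, 309 and 97.9 FPKM (q = 0.269 and 0.371 in the authors' deposited table), and was named after its values were seen. Both TPM2 and FLNA were thus well above control in both other groups, with neither called. In the list around SRF, a transcription factor that responds to the pool of free actin monomers, 0 of 7 were called. CCN2, a matricellular protein gene in that list, was at 30.9, 27.4 and 5.36 FPKM (q = 0.173 and 0.239 in the authors' deposited table), VCL (vinculin) at 75.7, 52.6 and 50.8 FPKM and FHL2 at 18.7, 13.5 and 23.4 FPKM.

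Partners of cofilin had 0 calls among 14 genes. TWF2, a twinfilin that binds monomers and caps ends, was at 14.6, 19.3 and 4.68 FPKM in treated, recovery and control cells. SSH3, a slingshot phosphatase of the family that activates cofilin, was at 3.72, 3.82 and 8.09 FPKM, and CAP1, which recycles actin monomers with cofilin, at 63.9, 65.8 and 62.6 FPKM. Filament capping proteins and tropomodulins had 0 calls among 9: CAPZA1 was at 83.8, 83.4 and 93.9 FPKM, EPS8 at 11.9, 13.2 and 10.5 FPKM, and TMOD1, which caps the slow-growing end, at 2.71, 1.11 and 6.83 FPKM. The Arp2/3 complex and its activators, which nucleate branches, had 0 calls among 16. ARPC3 was at 157, 195 and 180.4 FPKM, ACTR2 at 60.6, 48.6 and 84.8 FPKM, and HCLS1, a cortactin relative of blood cells, at 7.04, 8.52 and 1.01 FPKM. Formins and other nucleators had 0 calls among 17, with ENAH at 24.0, 25.2 and 34.0 FPKM and EVL at 14.1, 5.71 and 6.54 FPKM.

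**Figure D4:**
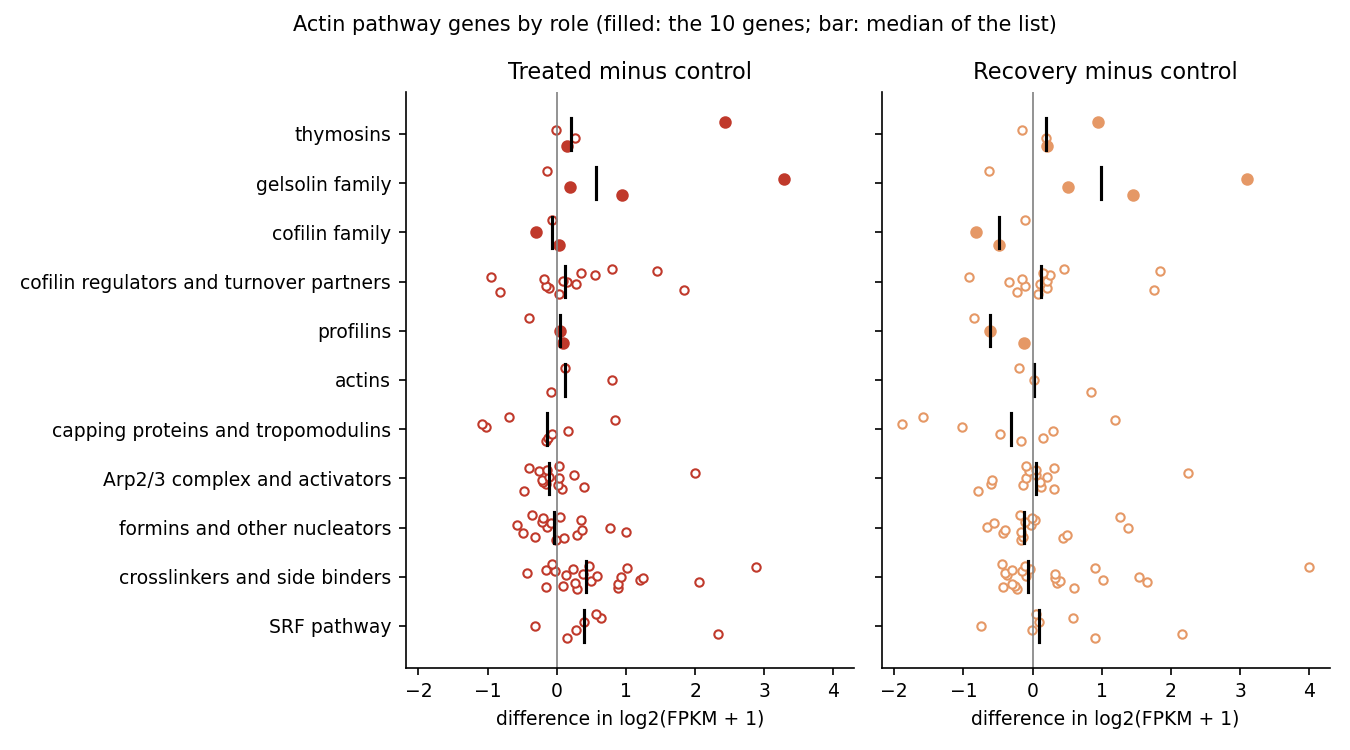
Difference in log2(FPKM + 1) from control for the actin pathway genes whose mean reached 0.5 FPKM, by role (rows), in treated cells (left) and recovery cells (right); filled points are the 10 genes, open points the others, and the bar is the median of the list. Most points lie near 0, with TMSB4X, SCIN, TPM2, FLNA, CCN2, HCLS1 and CORO1A to the right in treated cells. CORO1A (1.83) is in the list of cofilin partners and was named after its values were seen.

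TMSB4X and HCLS1 are also abundant in blood cells, so markers of other cell types were looked up. Of the blood markers reported here, SPI1 was at 0.930 FPKM, PTPRC at 0.413 FPKM, LYZ at 0.107 FPKM and CD14 at 0.106 FPKM in treated cells, and these 4 were listed at 0 in recovery and control cells. HBB, PPBP and CD3E were listed at 0 in all groups. Of 6 measured fibroblast and smooth muscle markers the summed level was 5.78, 12.3 and 8.54 FPKM in treated, recovery and control cells. COL3A1 was the highest of them, at 2.36, 7.78 and 4.10 FPKM. COL1A1 was at 1.71, 1.19 and 1.39 FPKM, LUM at 0.732, 1.48 and 2.42 FPKM, and DCN at 0 in all groups. Of 7 markers of intestine and proximal tubule, where VIL1 is typical, the sum was 11.0, 8.07 and 17.5 FPKM, most of it CDX2, and SLC34A1 was at 0 in all groups. The part of such cells in the values of TMSB4X or SCIN was not tested.

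The table also carries marks whose making is not described in the sources used here. A mark for affected DNA methylation stood on 2 of the 10 genes, SCIN and VIL1, and on 14.1% of all entries. A mark for high expression stood on 5 of them, TMSB4X, TMSB10, CFL1, PFN1 and PFN2, and on 12.8% of all entries. TMSB4X thus carried the expression mark and not the methylation mark, and SCIN the reverse.

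Genes next to the set were looked up as well. Within 50 kb of the 10 genes lay 27 other RefSeq entries and 6 loci of the long noncoding RNA table, and 0 of them were called in either comparison of the authors' deposited tables. Over all tested RefSeq entries 1.08% were called higher and 0.275% lower for treated cells, and 0.895% and 0.447% for recovery cells. So 0 of 27, which include entries listed at 0 in all groups, is near those shares and is no result about the neighbours. The share called among all noncoding loci was not worked out here. The 1 RefSeq neighbour of TMSB4X, TLR8, was listed at 0 in all groups. A noncoding locus 24.6 kb from SCIN was at 0, 12.9 and 23.0 FPKM in treated, recovery and control cells, and one 9.16 kb from TMSB10 at 26.3, 24.5 and 176 FPKM. The neighbour with the highest ratio to a control above 0 was FOSL1, a transcription factor gene 33.9 kb from CFL1, at 9.84, 0.580 and 0.126 FPKM (q = 0.939 for treated in the authors' deposited table).

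The 5 entries most like TMSB4X, by the distance between their treated and recovery differences from control on the log2(FPKM + 1) scale, were taken from 8567 entries with a mean of 5 FPKM or more. With 2 differences per gene from 3 group values, this is a coarse measure. TUBB2A, a beta-tubulin, was the nearest (distance 0.14), at 38.0, 15.0 and 6.92 FPKM in treated, recovery and control cells. PLK3, NM_001177388 (no symbol in the name table), CSTB and CDC14A followed at distances of 0.23 to 0.35. None of the 5 was called in treated cells, where the lowest q in the authors' deposited table was 0.246. For SCIN, among 12711 entries whose mean reached 0.5 FPKM, the nearest was NPIPA1, at 8.55 and 7.56 FPKM in treated and recovery cells and listed at 0 in control cells, and called in both comparisons of the authors' deposited table. MAGEA4, a cancer-testis antigen gene, was at 11.9, 9.32 and 0.245 FPKM, and IFI27, an interferon-induced gene, at 15.6, 12.2 and 0.607 FPKM. TMED8 and SLX9 completed the 5, and of these only SLX9 carried the methylation mark. NPIPA1 belongs to a family of near copies, so its own value is uncertain.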

How the data were processed

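Expression was measured by RNA sequencing of ribosomal-RNA-depleted total RNA in 5 HEK 293T libraries (2 treated, 1 recovery, 2 control; groups from sample titles). The authors deposited FPKM, per the file headers, with 1 value per gene and group, and p-values adjusted for multiple testing (q-values) of treated and of recovery against control; Cufflinks and Cuffdiff are named in the submitters' processing notes, with hg19 and mm9 as builds. The human build, hg19, is assumed for the coordinates of both tables, which are printed 1-based. The sources used here give no aligner, annotation release or settings. Of 20221 RefSeq and 21627 lncRNA entries, 1 and 2 with shifted cells were left out. A symbol (RefSeq, GRCh38.p14) was matched to 19665 of 20220 RefSeq entries, so a gene counted as without an entry may be among the unmatched ones. The lncRNA transcripts formed 10010 loci. Every value column used was matched to a group (0 unmatched).

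Differences are of log2(FPKM + 1), which understates low genes, and ratios are given where both values are above 0. A fit on single libraries had been foreseen, but the files hold group values alone, so no test was added and all calls are the authors'. Genes were named by a rule: the 10 genes, their families and the actins, the genes of each actin list with the highest mean and the highest and lowest treated difference (at 5 FPKM or more in 1 group), any call, and the 5 nearest to TMSB4X and to SCIN. The genes and lists were chosen with earlier results of these data known. The value of 1 fragment was the commonest ratio of group values (96 of 12366 entries for treated, 107 of 12095 for recovery). This step recovered a set ratio in simulated data, but with 1 library per group and the same expression in both. Values combined from 2 libraries, as in treated and control cells, were not simulated. Depth per library is unknown. One blood marker and one neighbouring gene are not reported here. Alternatives were a pseudocount of 0.1, no filter, rescaling, quantile scaling and other q thresholds. Work was done in Python 3.11.15 with pandas 2.3.3, numpy 2.4.6 and matplotlib 3.10.9.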

Additional observations from a re-analysis of the deposited data

How the results depend on the processing

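TMSB4X in treated cells was the 1 call among the 10 genes, and among the actin lists, at q under 0.05 and under 0.10. At q under 0.01 both counts were 0, but the lowest q over all RefSeq entries was 0.0147 in both comparisons. No entry could pass that threshold, so it says nothing about TMSB4X, whose q was that lowest value. The other counts of calls among the 10 genes and in the actin lists, treated lower and recovery higher or lower, were 0 at all 3 thresholds. The actin list's median log2 difference lay between 0.07 and 0.10 for treated and between -0.07 and 0.00 for recovery cells under a pseudocount of 0.1, no filter, rescaling and quantile scaling. Of 30 log2 differences of single genes, 7 moved by 0.1 or more with a pseudocount of 0.1, 8 with quantile scaling and 0 with rescaling to a median of 0. The difference of SCIN in treated against control cells was 5.75 with a pseudocount of 0.1 and 2.88 with quantile scaling. The cause of the moves under quantile scaling was not tested. No paired analysis was possible because the deposited table holds 1 combined value per group, and for the same reason no replicate could be left out. The control value of SCIN may rest on as few as 2 fragments, and no spread between libraries stands behind any value.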
